A study of Mus musculus with 2 samples.

Results

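The 10 genes described here are Il7r, Dntt, Lck, Thy1, Ikzf1, Notch1, Tcf7, Rag1, Rag2 and Cd79b, which are known for their roles in lymphocyte development. They were chosen by name, and each matched a single gene model among the 34745 models of the deposited tables. They were read by RNA-seq in haematopoietic stem and progenitor cells of the mouse carrying PML/RARa, the fusion protein behind acute promyelocytic leukaemia. One library came from cells with the fusion labelled 2KR and another from cells with the wild-type fusion (WT), so each form had 1 library. The series title says that 2 lysines of the fusion were studied. The cells of both groups came from the femurs of C57BL/6 mice that had received 5-fluorouracil, were enriched with a progenitor isolation kit, transduced with lentivirus in the presence of polybrene, and sorted for transduction before RNA extraction. Both grew in a myeloid medium with SCF, IL-3, IL-6, hydrocortisone and fetal bovine serum, and neither IL-7 nor FLT3 ligand is among the listed additions. The age and sex of the mice and the number of animals are not stated in the labels. The empty-vector arm that the protocol names was not analysed here.

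Lymphoid development starts in multipotent progenitors that express FLT3, the IL-7 receptor and early lymphoid transcription factors such as Ikaros. The RAG recombinase and terminal transferase then assemble and diversify antigen receptor genes, Notch signalling and TCF-1 direct progenitors into the T lineage, and EBF1 and PAX5 direct them into the B lineage. Some of these genes, such as Ikzf1 and Notch1, are also used by stem cells and myeloid cells.

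The 2KR library held 20462011 counts and the WT library 17606168, and 16498 and 16547 models had at least 1 count. Each of 15 progenitor markers had a count in at least 1 library. Kit, the receptor of SCF, stood at 1158 CPM in 2KR and 1359 in WT, and Ptprc, the pan-leukocyte phosphatase CD45, at 298.9 and 386.8. CPM are counts per 1e6 counts of a library after TMM scaling. With 1 library per form there is no replicate error, so no test was run. Intervals in parentheses are exact 95% intervals that cover counting error only, and every difference below is a difference between these 2 libraries. In bulk RNA, fewer cells of a type and less RNA per cell cannot be told apart.

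Of the 10 genes, 7 were read in both libraries and 3, Rag1, Rag2 and Cd79b, had 0 counts in both. Among the 7, Dntt, Lck and Thy1 passed 2-fold upwards in 2KR, Il7r passed it downwards, and Tcf7, Ikzf1 and Notch1 lay within 2-fold. The 2-fold rule was a log2 ratio of CPM + 1 of at least 1 in size, applied to models whose mean over the libraries reached 1 CPM. Over all 12466 models tested in this way, 7.22% differed by 2-fold, 2.66% being higher in 2KR and 4.56% lower. The median log2 ratio of the 7 genes was 0.62, with a range from -4.35 to 2.27, against a median of 0.02 over all tested models with quartiles of -0.21 and 0.23. Il7r passed the filter on low values through the WT library alone, so it had to be lower in 2KR in order to pass. The other 6 genes were above 1 CPM in each library. In the lists and neighbourhoods below, the filter likewise fixed the direction of any tested gene under 1 CPM in 1 library. Trat1, Lsp1, Ly6c2 and B230118H07Rik, under 1 CPM in WT, and Jag1 and Prss34, under 1 CPM in 2KR, are among them.

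**Figure D1:**
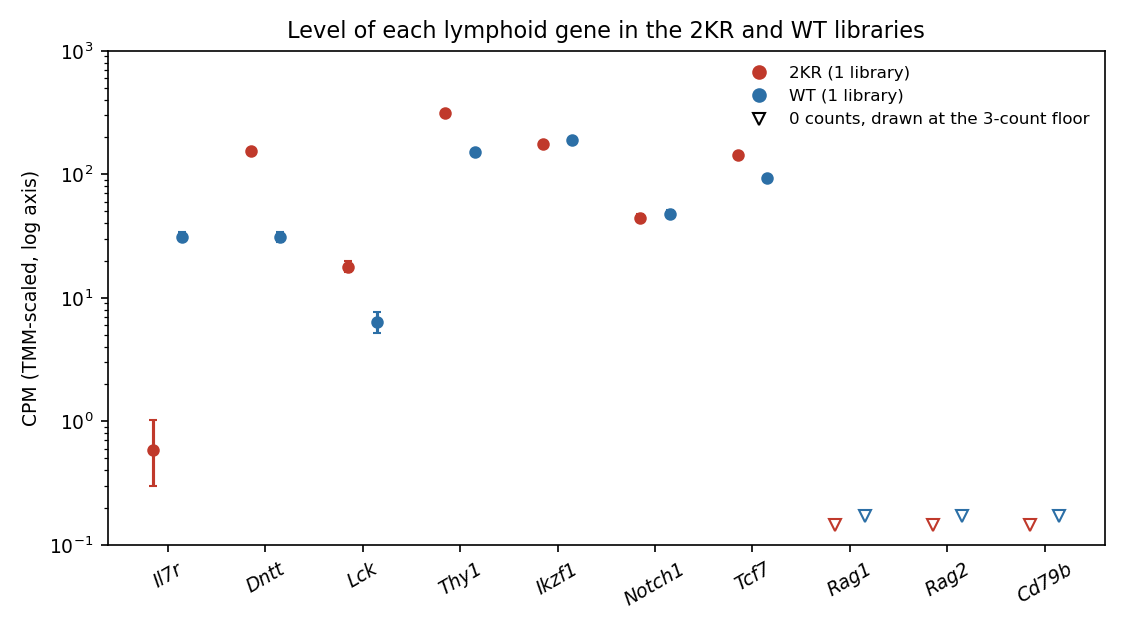
TMM-scaled CPM (log axis) of the 10 genes in the 2KR library (red) and the WT library (blue), with bars for the exact 95% counting interval; open triangles mark 0 counts, drawn at the floor of 3 counts. Dntt stands at 154.0 CPM in 2KR and 31.1 in WT, and Il7r at 0.582 and 31.3, while Rag1, Rag2 and Cd79b have no counts.

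Il7r encodes the alpha chain of the IL-7 receptor, which lymphoid progenitors need for survival and which is shared with the TSLP receptor. Its model (ENSMUSG00000003882) lies on chromosome 15 at 9506161 to 9529876, minus strand, in GRCm38. Il7r had 12 counts in 2KR and 548 in WT. In scaled terms this was 0.582 CPM in 2KR (0.301 to 1.02) and 31.3 CPM in WT (28.8 to 34.1). Il7r was thus 53.8-fold lower in 2KR (30.6 to 105), and its log2 ratio of -4.35 ranked 6 from the lowest of all tested models. In deposited FPKM, a level per kilobase of gene length and scaled by the library total, Il7r held rank 13345 of all models in 2KR and rank 4570 in WT.

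The partners of the receptor lay within 2-fold. Il2rg, the common gamma chain, stood at 914.9 CPM in 2KR and 970.4 in WT, a ratio of 0.943 (0.923 to 0.963). Jak1, the kinase bound to the alpha chain, had a ratio of 1.02 (0.992 to 1.05), and Crlf2, the partner in the TSLP receptor, had 308 counts in 2KR and 225 in WT. The ligand gene Il7 had 0 counts in both. Of the 14 tested genes of the IL-7 receptor list, 0 passed the 2-fold rule upwards in 2KR and 2 were lower, Il7r and Cish. Cish, a feedback inhibitor of STAT5 signalling, stood at 65.5 CPM in 2KR and 196.0 in WT, 2.99-fold lower (2.81 to 3.19). Another inhibitor, Socs1, was 1.61-fold lower (1.49 to 1.74). Flt3, the receptor tyrosine kinase of lymphoid-primed progenitors, ran the other way from Il7r, with 32.6 CPM in 2KR and 18.0 in WT, a ratio of 1.81 (1.58 to 2.08). The list median was -0.02 on the log2 scale and 0.004 when the counts were scaled by library totals alone.

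Dntt encodes terminal deoxynucleotidyl transferase, the polymerase that adds untemplated nucleotides at V(D)J junctions. Its model (ENSMUSG00000025014) lies on chromosome 19 at 41029275 to 41059523, plus strand. Dntt had 3173 counts in 2KR and 544 in WT, or 154.0 CPM (148.7 to 159.4) and 31.1 CPM (28.6 to 33.8). The ratio of 4.95 (4.52 to 5.43) ranked 32 from the highest on the log2 scale. By deposited FPKM Dntt held rank 473 in 2KR and rank 3281 in WT.

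Rag1 and Rag2 encode the recombinase that cuts antigen receptor genes, the reaction in which terminal transferase acts. Both had 0 counts in 2KR and 0 in WT, which allows up to 0.146 CPM in 2KR and 0.172 CPM in WT when 3 counts are taken as the limit. Dntt was thus read at 154.0 CPM in a library in which neither recombinase gene was read. Rag1 (ENSMUSG00000061311) lies on chromosome 2 at 101638282 to 101649501, minus strand, and Rag2 (ENSMUSG00000032864) at 101624718 to 101632529, plus strand. Another model, B230118H07Rik, spans both from 101560781 to 101649532 on the minus strand. It had 87 counts in 2KR and 8 in WT, a ratio of 9.23 (4.48 to 22.1), and it was the one overlapping model that met the 2-fold rule. In GENCODE M21 exons of other models share 80 of the 6608 exonic bases of Rag1 and 208 of the 3424 of Rag2, so most exonic bases of the recombinase genes are not shared.

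The end joining machinery that completes recombination was read in both libraries. Of the 15 tested genes of the recombination list, 1 passed the 2-fold rule upwards in 2KR, Dntt itself, and 1 was lower, Polm. Polm encodes polymerase mu, the closest relative of terminal transferase, and it had 11.0 CPM in 2KR and 24.3 in WT, 2.21-fold lower (1.87 to 2.60). Dntt and Polm therefore differed in opposite directions. Hmgb2, a DNA-bending cofactor of the recombinase, stood at 352.8 CPM in 2KR and 339.4 in WT. H2afx, the histone variant of break signalling, stood at 327.5 and 247.5 CPM, and Xrcc4, the ligase partner, was 1.58-fold lower (1.24 to 2.02). Without Dntt the list median was 0.09 over 14 genes.

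The promoters of Il7r, Dntt and Rag1 are shown because these genes had the lowest ratio, the highest ratio and no counts. Each window runs from 250 bases before to 50 bases after the start in RefSeq (GRCm38.p6), 5′ to 3′ on the gene's strand. Capitals mark matches on either strand to AGGTCA, the core bound by retinoic acid receptors, to TGTGGT, the RUNX core, or to CANNTG, the E-box of E proteins.
Il7r promoter, chr15:9529827-9530126, minus strand: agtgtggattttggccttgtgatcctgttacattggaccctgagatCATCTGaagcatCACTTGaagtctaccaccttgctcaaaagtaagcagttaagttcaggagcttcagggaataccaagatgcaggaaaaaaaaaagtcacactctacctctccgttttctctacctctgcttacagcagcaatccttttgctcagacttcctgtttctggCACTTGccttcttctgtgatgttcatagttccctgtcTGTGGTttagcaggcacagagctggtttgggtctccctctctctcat
Dntt promoter, chr19:41029025-41029324, plus strand: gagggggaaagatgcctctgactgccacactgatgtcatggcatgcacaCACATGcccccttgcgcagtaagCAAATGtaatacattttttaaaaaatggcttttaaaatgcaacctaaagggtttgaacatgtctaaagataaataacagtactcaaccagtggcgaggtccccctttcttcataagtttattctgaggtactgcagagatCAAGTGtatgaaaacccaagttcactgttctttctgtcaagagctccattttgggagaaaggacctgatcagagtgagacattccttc
Rag1 promoter, chr2:101649483-101649782, minus strand: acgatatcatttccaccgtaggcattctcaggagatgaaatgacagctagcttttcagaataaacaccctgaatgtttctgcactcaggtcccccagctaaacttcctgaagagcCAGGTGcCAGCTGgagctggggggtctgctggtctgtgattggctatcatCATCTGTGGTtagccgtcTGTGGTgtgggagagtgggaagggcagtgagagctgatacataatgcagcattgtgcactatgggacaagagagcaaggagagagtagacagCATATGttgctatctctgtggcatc
The Il7r window held a RUNX match at 3 bases after the start and 3 E-boxes, at -204, -192 and -34. The Dntt window held 3 E-boxes, at -201, -178 and -38, and no match to the other motifs. The Rag1 window held RUNX matches at -81 and -67 and 4 E-boxes, of which the one at -85 overlaps the RUNX match at -81. The start from which the Rag1 offsets are counted is 101649532, which is also the 5′ end of B230118H07Rik on the minus strand. The deposited Rag1 model begins at 101649501 on that strand. The Rag1 window is thus not a window of Rag1 alone. B230118H07Rik had 87 counts in 2KR and 8 in WT. AGGTCA was found in none of these 3 windows. RefSeq windows were found for 8 of the 10 genes, 11 windows in all, and 2 of the 11 held AGGTCA, at -34 in Rag2 and at -13 of the second Tcf7 start. Of all 32851 windows in the table, 16.3% held AGGTCA, 16.8% TGTGGT and 72.3% an E-box. These matches are letters in a window and were not tested for binding.

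Thy1 encodes a GPI-anchored surface protein of T cells that is also present at low levels on mouse stem cells. Its model (ENSMUSG00000032011) lies on chromosome 9 at 44043384 to 44048579, plus strand. Thy1 had 6478 counts in 2KR and 2654 in WT, or 314.4 CPM (306.8 to 322.1) and 151.8 CPM (146.1 to 157.7). The ratio was 2.07 (1.98 to 2.17), just past the 2-fold rule. It was the most abundant of the 10 genes in each library, at 182.5 FPKM in 2KR and 86.9 in WT, and held rank 145 in 2KR and rank 348 in WT among all models. Other genes of the list of GPI-anchored and Ly6 antigens, which also holds Slfn2, a gene of neither class, were mixed. Of 10 tested genes of that list other than Thy1, 1 passed the 2-fold rule upwards in 2KR, Ly6c2, and 2 were lower, Cd24a and Ly6c1. Cd24a, an antigen of B-cell precursors among others, was 7.37-fold lower (5.72 to 9.63). Ly6e, with the highest mean of the list, had a ratio of 0.624 (0.612 to 0.637), and Ly6a, the stem cell antigen Sca-1, stood at 89.2 CPM in 2KR and 134.9 in WT.

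Lck encodes the Src family kinase that starts signalling from the T-cell receptor. Its model (ENSMUSG00000000409) lies on chromosome 4 at 129548344 to 129573641, minus strand. Lck had 367 counts in 2KR and 111 in WT, or 17.8 CPM (16.04 to 19.7) and 6.35 CPM (5.22 to 7.65), a ratio of 2.81 (2.26 to 3.501). The gene has 2 starts in RefSeq, and counts per model cannot say which was used. Of the 10 tested genes of the Src family list, 1 passed the 2-fold rule upwards in 2KR, Lck, and 1 was lower, Ptpn22. Ptpn22, a phosphatase that restrains Lck, stood at 35.0 CPM in 2KR and 101.5 in WT, 2.90-fold lower (2.66 to 3.17). Fyn, the relative that shares its role in T cells, had a ratio of 1.32 (1.24 to 1.41), and Lyn, the main family member of myeloid cells, one of 1.03 (0.972 to 1.10).

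Tcf7 encodes TCF-1, a factor of early T-cell commitment that works with beta-catenin. Its model (ENSMUSG00000000782) lies on chromosome 11 at 52252371 to 52283014, minus strand. Tcf7 had 2946 counts in 2KR and 1621 in WT, or 143.0 CPM (137.9 to 148.2) and 92.7 CPM (88.3 to 97.3). The ratio of 1.54 (1.45 to 1.64) was above 1 beyond counting error but under the 2-fold rule. An interval wholly above 1 was common, since 31.6% of all tested models had one. Lef1, the partner of TCF-1 in the same family, ran the other way, with 31.8 CPM in 2KR and 63.7 in WT, 2.00-fold lower (1.82 to 2.21) and just short of the 2-fold rule on the CPM + 1 scale. Of 12 tested TCF/LEF and Wnt genes, 0 passed the 2-fold rule upwards in 2KR and 1 was lower. That gene was Tle4, a corepressor that binds TCF factors, with 4.95 CPM in 2KR and 36.4 in WT, 7.35-fold lower (5.95 to 9.15). Tle3, the corepressor with the higher level, had a ratio of 1.17 (1.12 to 1.22).

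Ikzf1 encodes Ikaros, a zinc finger factor that opens the lymphoid programme and is also expressed in stem cells. Its model (ENSMUSG00000018654) lies on chromosome 11 at 11685003 to 11772926, plus strand. Ikzf1 had 3607 counts in 2KR and 3288 in WT, or 175.1 CPM (169.4 to 180.9) and 188.1 CPM (181.7 to 194.6). The ratio was 0.931 (0.888 to 0.976), an interval wholly below 1, as in 28.5% of all tested models. None of the 12 tested genes of the list of Ikaros relatives and partners differed by 2-fold. The largest difference there was in Ikzf2, which encodes Helios, at 80.2 CPM in 2KR and 123.7 in WT, 1.54-fold lower (1.45 to 1.65). Ikzf3, which encodes the lymphoid member Aiolos, had 1 count in 2KR and 0 in WT. Chd4, the remodeller subunit that Ikaros binds, had a ratio of 0.982 (0.960 to 1.01).

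Notch1 encodes the receptor whose cleaved form switches on the T-cell programme. Its model (ENSMUSG00000026923) lies on chromosome 2 at 26457903 to 26516663, minus strand. Notch1 had 915 counts in 2KR and 840 in WT, or 44.4 CPM (41.6 to 47.4) and 48.0 CPM (44.9 to 51.4). The ratio of 0.924 (0.841 to 1.02) did not differ from 1 beyond counting error. Of 31 tested Notch pathway genes, 24 had a ratio below 1 and 7 above. The median was -0.16 on the log2 scale, and it was -0.16 with DESeq2 size factors and -0.15 with library totals. Over all tested models the median was 0.02, with quartiles of -0.21 and 0.23. The activity of the pathway was not tested. One of the 31, Rfng, was at least 2-fold higher in 2KR and 1, Jag1, was lower. Rfng, a glycosyltransferase that modifies Notch, had a ratio of 2.08 (1.79 to 2.42), and Jag1, a ligand, had 18 counts in 2KR and 62 in WT. Among targets of Notch, Nrarp was higher in 2KR, at 28.1 CPM against 14.2 in WT, a ratio of 1.98 (1.70 to 2.30). Hes1 and Hey1 were lower, with ratios of 0.514 (0.338 to 0.773) and 0.648 (0.448 to 0.934). Hes1 had 40 counts in 2KR and 66 in WT, Hey1 had 55 and 72, and Heyl had 0 and 3. Dtx1, another target, had 2 and 7 counts, and Hes5 had 0 in both.

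Cd79b encodes the beta chain of the B-cell receptor signalling unit. Its model (ENSMUSG00000040592) lies on chromosome 11 at 106311341 to 106314762, minus strand, with no other model across it. Cd79b had 0 counts in 2KR and 0 in WT. Its partner Cd79a had 5 counts in 2KR and 0 in WT. Its nearest tested neighbours on either side, Smarcd2 and Icam2, were read with ratios of 1.08 (1.02 to 1.14) and 1.15 (1.07 to 1.25).

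**Figure D2:**
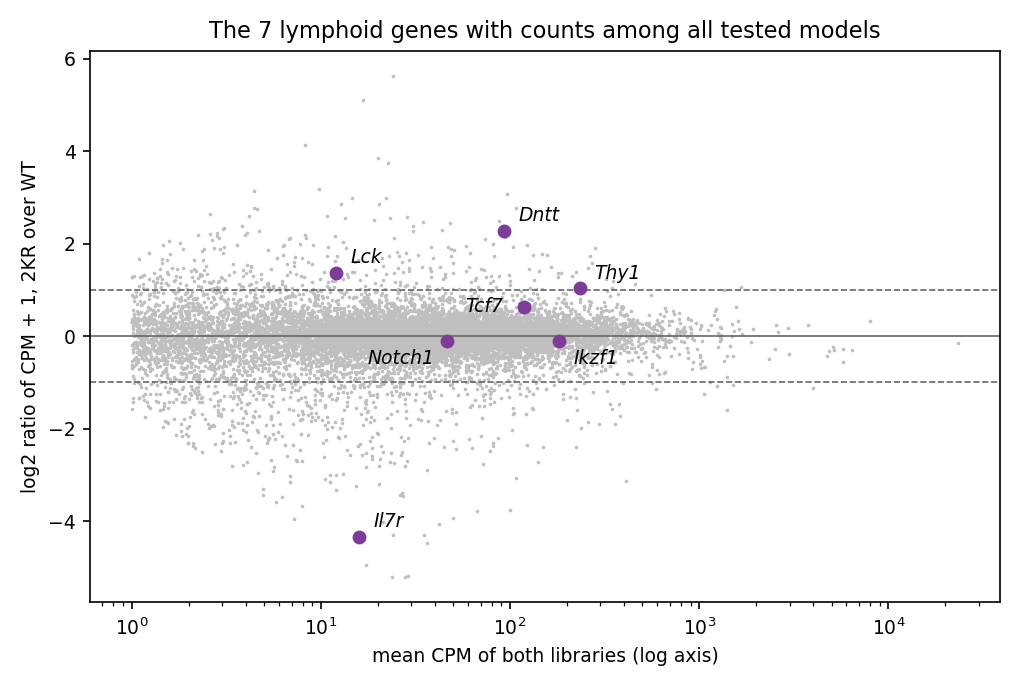
Log2 ratio of CPM + 1, 2KR over WT, against mean CPM (log axis) for the 12466 tested models (grey) and the 7 genes with counts (purple); dashed lines mark 2-fold. Il7r lies at -4.35 near the lower edge of the cloud, Dntt at 2.27 near the upper edge, and Ikzf1 and Notch1 lie inside it.

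Levels of different genes were compared per length, as deposited FPKM. In 2KR the order was Thy1 at 182.5, Dntt at 72.9, Tcf7 at 43.0, Ikzf1 at 16.3, Lck at 3.82, Notch1 at 2.83 and Il7r at 0.183 FPKM. In WT it was Thy1 at 86.9, Tcf7 at 27.5, Ikzf1 at 17.2, Dntt at 14.5, Il7r at 9.70, Notch1 at 3.01 and Lck at 1.34 FPKM. Dntt was above Tcf7 and Ikzf1 in 2KR and below both in WT, and Lck and Il7r also changed places around Notch1. No pair of neighbours in either order had overlapping counting intervals; Ikzf1 (16.6 to 17.8) and Dntt (13.3 to 15.8) lay next to each other in WT, as did Lck (3.44 to 4.23) and Notch1 (2.65 to 3.01) in 2KR. The lengths behind the deposited values differ from the exon union of GENCODE M21, with 10847 against 5777 bases for Ikzf1 and 4700 against 2929 for Lck. With the GENCODE lengths, a choice made after seeing the data, the order of all 7 genes was the same in each library.

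**Figure D3:**
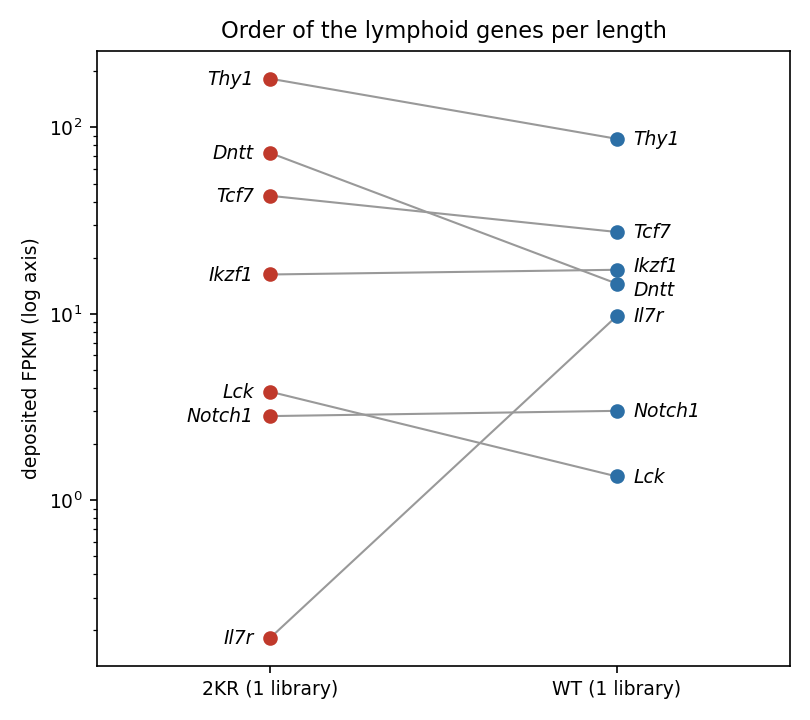
Deposited FPKM (log axis) of the 7 genes with counts, in the 2KR library (left, red) and the WT library (right, blue), joined by gene. Dntt stands in place 2 in 2KR and place 4 in WT, and Il7r in place 7 and place 5.

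B-lineage markers were low in both libraries. Of the 20 B-lineage markers, 6 had 0 counts in both libraries, among them Ebf1 and Pax5, the factors that set B-cell identity. The summed level of the 20 was 10.8 CPM in 2KR and 5.72 in WT, of which Bank1, an adaptor of B-cell signalling, gave 7.38 and 2.29. Igll1, part of the surrogate light chain, had 12 counts in 2KR and 9 in WT. Only 2 of the 20, Bank1 and Cd72, reached a mean of 1 CPM.

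The T-lineage list was uneven. Of 23 markers, which include Lck, Thy1 and Tcf7, 6 had 0 counts in both libraries, among them Cd3e, Cd5 and Ptcra. Cd3d had 2 counts in 2KR and 5 in WT, Cd4 had 0 and 1, Cd8a had 0 and 2, and Bcl11b, the factor of T-cell commitment, had 1 and 2. Other T-cell signalling genes were read well. Cd28, the costimulatory receptor, stood at 108.3 CPM in 2KR and 48.2 in WT, a ratio of 2.25 (2.07 to 2.43), and Trat1, an adaptor of the T-cell receptor, had 112 counts in 2KR and 12 in WT. Lat, the adaptor downstream of Zap70, had a ratio of 1.31 (1.21 to 1.43). Zap70, a kinase of the same pathway, had 400 counts in 2KR and 437 in WT. Leaving out Lck, Thy1 and Tcf7, 2 of 8 tested T-lineage genes were at least 2-fold higher in 2KR, 0 were lower, and the median log2 ratio was -0.19. With a pseudocount of 0.1 CPM in place of 1, Cd3g, a chain of the T-cell receptor complex with 40 counts in 2KR and 72 in WT, also passed the rule, as lower. The summed level of these other T-lineage markers was 271.0 CPM in 2KR and 247.5 in WT.

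**Figure D4:**
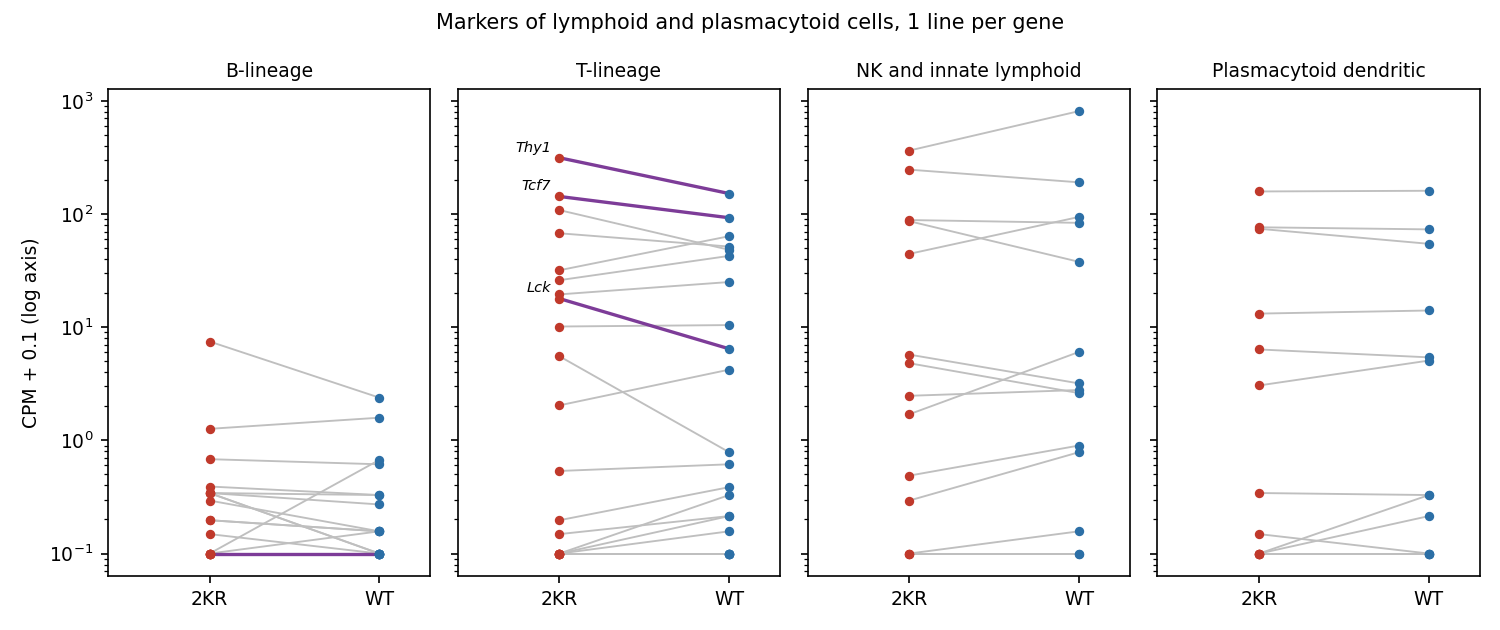
CPM + 0.1 (log axis) of each marker gene of 4 cell types in the 2KR library (red) and the WT library (blue), with 1 line per gene and purple lines for Lck, Thy1, Tcf7 and Cd79b. Most B-lineage markers lie at or near 0.1, the position of 0 counts, while the T-lineage panel holds genes at both ends of the scale.

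Other cells that can carry lymphoid transcripts were checked in the same way. Of 14 markers of NK and innate lymphoid cells, Ncr1 and Klrg1 had 0 counts in both libraries, and the summed level was 845.4 CPM in 2KR and 1235 in WT. Of the 9 tested, 1 passed the 2-fold rule upwards in 2KR and 3 were lower. The higher one was Il2rb, a chain of the IL-2 and IL-15 receptors, at 86.4 CPM in 2KR and 37.8 in WT. The lower ones were Il18r1, at 364.2 and 812.6 CPM, Klrd1 and Zbtb16. Il18r1 was the largest part of the sum in each library. Nkg7, the next largest, stood at 246.9 CPM in 2KR and 190.7 in WT. Of the 9 tested, 4 had an interval wholly above 1 and 3 wholly below 1. Of 13 markers of plasmacytoid dendritic cells, Siglech had 0 counts in 2KR and 4 in WT, and Ly6d, Klk1 and Cd209d had 0 in both. None of the 6 tested differed by 2-fold, and the summed level was 331.4 CPM in 2KR and 313.1 in WT. That sum included Runx2 at 158.4 CPM in 2KR and 160.6 in WT, Tcf4 at 76.3 and 73.2, and Bst2 at 74.1 and 54.5. Genes of lymphoid-primed progenitors were mixed, with 2 of 13 tested at least 2-fold higher in 2KR, Dntt and Lsp1, and 2 lower, Il7r and Cd27. Cd27, a receptor of early lymphoid progenitors, had 124 counts in 2KR and 282 in WT, and Mef2c, a factor of lymphoid fate, had 3 and 12. Satb1, a chromatin organiser of the same stage, was 1.71-fold lower (1.63 to 1.80).

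Among E proteins, Id proteins and other lymphoid factors, 3 of 14 tested genes passed the 2-fold rule, each lower in 2KR. These were Bach2, a transcriptional repressor, at 10.7 CPM in 2KR and 36.6 in WT, Foxp1 at 46.3 and 111.1, and Id1, an inhibitor of E proteins, at 7.38 and 17.4. Id2, another inhibitor, was 1.64-fold lower (1.59 to 1.71), and the E protein gene Tcf3, whose products bind E-boxes, had a ratio of 1.11 (1.06 to 1.17). Myb, needed by progenitors of all lineages, had a ratio of 1.39 (1.36 to 1.42).

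Markers of myeloid cells, megakaryocytes and progenitors also differed between the libraries. Of 9 tested mast cell and basophil markers, 7 were at least 2-fold lower in 2KR and 1 was higher, and the summed level of the 10 listed was 3893 CPM in 2KR and 7329 in WT. Cpa3 alone gave 2525 CPM in 2KR and 5468 in WT. The higher marker was Mcpt8, at 449.8 CPM in 2KR and 190.1 in WT, a ratio of 2.37 (2.27 to 2.46). Fcer1a was at 0 in both, and Prss34 had 0 counts in 2KR and 82 in WT. Of 9 monocyte markers the summed level was 126.4 CPM in 2KR and 321.6 in WT, and 4 of the 8 tested were lower and 1 higher. Of 10 neutrophil markers the sum was 525.9 CPM in 2KR and 231.2 in WT, with 2 of 3 tested higher, Ctsg and Mpo, and Camp and Ly6g at 0. Ctsg alone gave 486.7 CPM in 2KR and 212.1 in WT, while Elane had 10 and 5 counts and Prtn3 had 14 and 6. Of 5 megakaryocyte markers, all tested, 1 was higher, Pf4, a platelet chemokine, at 406.1 CPM in 2KR and 121.2 in WT, and the sum was 1335 CPM in 2KR and 1031 in WT. Gp1ba, a platelet receptor chain, had a ratio of 1.70 (1.55 to 1.87), while Itga2b stood at 858.5 CPM in 2KR and 867.0 in WT. Of the erythroid markers, Slc4a1 was at 0 in both, none of the 4 tested passed the rule, and the sum was 27.2 CPM in 2KR and 19.0 in WT. Of 14 tested progenitor markers, 1 was lower, Meis1, a stem cell transcription factor, by 2.67-fold (2.45 to 2.92). Cd34, a progenitor surface antigen, had a ratio of 1.87 (1.81 to 1.92), and the sum of the 15 was 4935 CPM in 2KR and 4937 in WT. Their part in the values of Il7r, Dntt, Lck and Thy1 was not tested.

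Counts of models near the 10 genes that passed the 2-fold rule are given here beside the 7.22% over all tested models. Within 1000 kb of Il7r, measured between midpoints, 6 other models were tested and 0 differed by 2-fold. The same count was 0 of 20 for Dntt, 0 of 29 for Thy1, 0 of 20 for Tcf7, 0 of 4 for Ikzf1 and 0 of 26 for Cd79b. Around Rag1 and Rag2, whose windows hold the same tested models, 2 of 6 passed, B230118H07Rik as higher and Prr5l as lower. The nearest tested neighbours of Dntt, Zfp518a and Tm9sf3, had ratios of 1.06 (0.984 to 1.15) and 1.04 (1.00 to 1.08). Those of Lck, Hdac1 and Eif3i, had ratios of 1.22 (1.14 to 1.31) and 1.19 (1.12 to 1.26), and 2 of 36 tested models near Lck were higher by the rule, Fndc5 and Col16a1. Near Notch1, 5 of 44 differed by 2-fold, of which 2 were higher and 3 lower, and Egfl7, the nearest tested protein-coding gene on one side, had a ratio of 3.53 (3.07 to 4.06). Models that overlap Ikzf1, Notch1 and Tcf7 had at most 23 counts in a library.

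**Figure D5:**
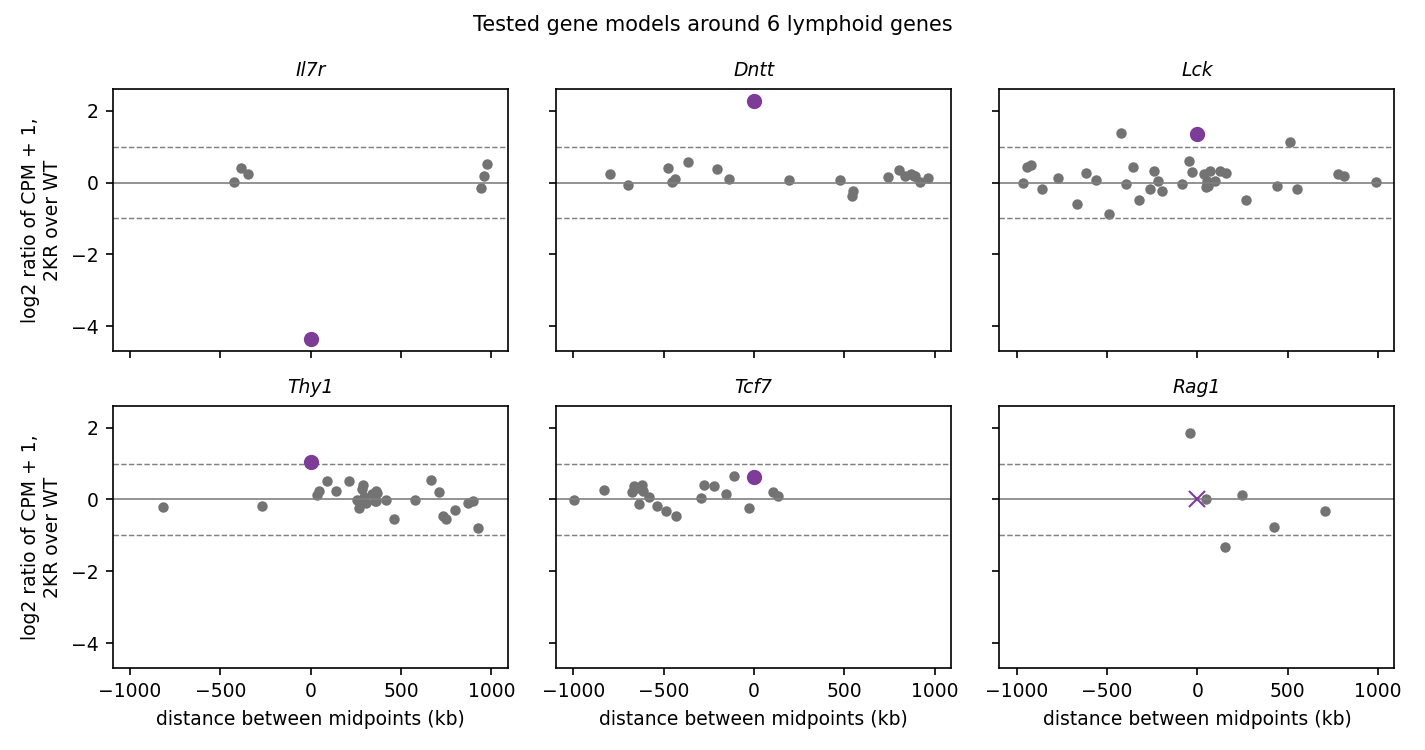
Log2 ratio of CPM + 1, 2KR over WT, of tested models (grey) against the distance between midpoints in kb, around 6 of the genes (purple; a cross marks Rag1, which had no counts); dashed lines mark 2-fold. Il7r and Dntt lie apart from all tested neighbours, and in the Rag1 panel B230118H07Rik lies at 1.84.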

How the data were processed

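Per the labels, 1 library came from cells with the 2KR form and 1 from cells with WT PML/RARa. HISAT2 2.0.4 and GRCm38 are named in the submitters' processing notes; the sources used here do not give the read counter, annotation release or strandedness, so reads of overlapping models may not be told apart. The authors deposited raw read counts and FPKM per gene model, per the file headers. The deposited FPKM equalled the count over a fixed length and the library total within 0.1% for all 15403 of 15403 models counted in each library. Counts were scaled by TMM in edgeR 4.0.16 (R 4.3.3; factors 1.007 for 2KR and 0.993 for WT) and given as CPM. Intervals were computed with scipy 1.17.1 in Python 3.11.15 (pandas 2.3.3, numpy 2.4.6), and plots were drawn with matplotlib 3.10.9. Testing was limited to models whose mean reached 1 CPM, and a log2 ratio of CPM + 1 of at least 1 in size was called; ratios in the text carry no pseudocount. The 95% intervals are Clopper-Pearson (exact), of a count in its library total, or of the 2KR share of both counts turned into a ratio, and PCR copies are not independent molecules. The floor for 0 counts was 3 counts per library. The script was tested on simulated data. Strand, gene type and exons come from GENCODE M21 on GRCm38, which matched 34344 identifiers, 27776 of them with the same coordinates. Among the 10 genes, the coordinates of Il7r and Dntt differed, so their GENCODE lengths are of models unlike the counted ones.

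The 10 genes and the lists were chosen with earlier results of these data known. The rule for naming took the 10 genes, their nearest tested neighbours and overlapping models. From each list it took up to 3 tested genes of largest log2 ratio in either direction and the 2 of highest mean CPM. The text leaves out some genes that met this rule. Genes named outside it were chosen after their values were seen. Alternatives were pseudocounts of 0.1 and 5 CPM, no filter, a filter at a mean of 5 CPM, size factors from DESeq2 1.42.0, library totals, and FPKM. Some genes of the lists are not reported here by name.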

Additional observations from a re-analysis of the deposited data

How the results depend on the processing

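The 2-fold calls of Il7r, Dntt, Lck and Thy1 stood in all 7 alternatives (pseudocounts of 0.1 and 5 CPM, no filter, a mean of at least 5 CPM, DESeq2 size factors, library totals, FPKM), and no other of the 10 genes was called in any of them. The changes of filter could not move these calls, since Lck, with the lowest mean of the 7 genes with counts, had 12.1 CPM. The 21 ratios recomputed with other scalings lay within the counting interval of the reported ones. The FPKM ratios among them repeat those of library totals, because FPKM is a count over a fixed length and the library total. The number of models called among all models, 900, was 444 with a pseudocount of 5 CPM, 584 with a mean of at least 5 CPM and 448 on FPKM, so the share called ran from 3.56% to 9.31%. Of the B- and T-lineage markers, 5 of 13 were called, and 3 were called with a pseudocount of 5 CPM and 3 with a mean of at least 5 CPM, where Bank1 and Trat1, both low in WT, dropped out. On FPKM 4 were called, without Bank1, and with a pseudocount of 0.1 CPM 6, of which Cd3g was lower. No paired analysis was possible because each form has 1 library. Depth limits genes near the floor: 3 counts are 0.146 CPM in 2KR and 0.172 CPM in WT, and variation between cultures was not measured.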
